A study of Mus musculus with 47 samples.

Results

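Protocadherins are cadherin-related adhesion proteins of the cell surface, and most of those expressed in brain come from 3 neighbouring gene clusters, alpha, beta and gamma. In the clusters each neuron switches on a small, partly random set of first exons through promoter contacts that depend on the DNA-binding protein CTCF and on cohesin, and the resulting surface code lets a neuron tell its own branches from those of other neurons. Alpha and gamma transcripts carry shared constant exons at their 3′ end, whereas each beta gene is a single exon. The non-clustered genes (Pcdh1, Pcdh7, Pcdh8, Pcdh10, Pcdh19 and relatives) are expressed in region-specific patterns and are known for sorting neurons and their axons. All genes whose annotated symbol begins with Pcdh were taken, with the probe of highest mean level over all arrays standing for the gene. These were 54 of 19596 genes and unnamed probes on the arrays: 4 alpha, 22 beta, 19 gamma and 9 non-clustered genes, 47 of them on mouse chromosome 18.

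The arrays measured bulk RNA from striatum, cortex and cerebellum of R6/2(300Q) mice, which carry a fragment of the human huntingtin gene with an expanded CAG repeat and serve as a model of Huntington's disease, and of wild-type mice, on a CBA x C57BL/6 background, both sexes together. Mice of each genotype were given the histone deacetylase inhibitor 4b or a control treatment that the labels do not describe further. The 4b solution (1 mg/ml) took the place of drinking water, starting at an age of 4 months and lasting 67 days. This gave 12 groups of 4 arrays, with 3 for wild-type control cerebellum, and 47 arrays in all. The labels do not say that replicates of a group came from separate animals or whether regions share animals, so p-values measure only the spread between these samples.

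Median intensity ran from 122.2 to 289.3 across arrays, and arrays of a group correlated at 0.974 to 0.994 over all probes. The mean log2 level of 7 medium spiny neuron markers was 12.95 to 13.23 on wild-type control arrays of striatum. On those of cortex it was 8.71 to 9.03 and on those of cerebellum 7.86 to 8.50, so the region labels held. In striatum this mean level was 12.20 to 12.53 on transgenic control arrays and 12.24 to 12.64 on transgenic 4b arrays, below every wild-type array. Between control mice 5 of the 7 markers fell, among them Penk by 1.09 and Ppp1r1b by 1.02. Of all genes 2.34% were lower there at an adjusted p under 0.05 (limma). In bulk tissue fewer cells of a type and less RNA per cell cannot be told apart, and the part of this loss in the protocadherin differences was not tested. Mean choroid plexus marker levels spread widely between arrays of a group, from 8.64 to 12.07 in wild-type control striatum. They were 7.73 to 8.85 in transgenic control against 10.92 to 11.91 in transgenic 4b cerebellum. The part of choroid plexus in the results was not tested either.

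Tests in a region covered genes whose mean level there exceeded the 40th percentile of all probes. Of the 54 genes 29 were tested in striatum, 27 in cortex and 29 in cerebellum, 26 of them in all 3 regions, and 23 in none. The tested genes comprised 2 alpha, 10 beta, 12 gamma and 7 non-clustered genes over the 3 regions together. The 23 untested genes averaged 6.01 (Pcdhb7) to 6.63 (Pcdhb17) on the log2 scale, close to the level that Y-linked genes gave on the 26 arrays of female mice. There Zfy2 reached 7.10 and the other Y-linked genes at most 6.75 (Eif2s3y). They were Pcdha1, Pcdha3, Pcdhb1, Pcdhb2, Pcdhb5, Pcdhb7, Pcdhb11, Pcdhb13, Pcdhb15, Pcdhb17 to Pcdhb21, Pcdhga1, Pcdhga3, Pcdhga5, Pcdhga6, Pcdhga9, Pcdhgb5, Pcdhgb8, Pcdh12 and Pcdh18. A level near this background bounds the transcript from above and does not show that the gene is silent.

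The non-clustered genes had the widest spread of group means, led by Pcdh10, which ran from 7.60 in wild-type 4b cerebellum to 10.72 in transgenic 4b cortex, a range of 3.11. The ranges of Pcdh19 and Pcdh20 were 1.93 and 1.81. Within the clusters the widest ranges were 1.44 for Pcdhb4, 0.94 for Pcdhb3 and 0.90 for Pcdhb16 among beta genes, and 1.32 for Pcdhga10, 1.08 for Pcdhgb6 and 0.84 for Pcdhga8 among gamma genes. Among the 4 alpha genes the widest ranges were 1.06 for Pcdha12, 0.60 for Pcdha5 and 0.29 for the untested Pcdha1.

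The promoters of these 3 non-clustered genes, from 250 bases before to 50 bases after the annotated start, are shown because Pcdh10, Pcdh19 and Pcdh20 had the widest ranges and differed both by region and by genotype. They come from RefSeq on GRCm38.p6, with any GC box (GGGCGG on either strand) in capitals; Pcdh10 lies at chr3:45378148-45378447 on the plus strand, Pcdh19 at chrX:133688944-133689243 and Pcdh20 at chr14:88471347-88471646, both on the minus strand.
Pcdh10: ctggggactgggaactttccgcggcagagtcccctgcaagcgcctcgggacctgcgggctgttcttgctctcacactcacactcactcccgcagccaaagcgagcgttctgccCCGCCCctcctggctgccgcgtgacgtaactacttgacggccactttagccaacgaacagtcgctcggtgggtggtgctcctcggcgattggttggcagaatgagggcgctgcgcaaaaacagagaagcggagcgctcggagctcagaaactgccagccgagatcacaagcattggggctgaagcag
Pcdh19: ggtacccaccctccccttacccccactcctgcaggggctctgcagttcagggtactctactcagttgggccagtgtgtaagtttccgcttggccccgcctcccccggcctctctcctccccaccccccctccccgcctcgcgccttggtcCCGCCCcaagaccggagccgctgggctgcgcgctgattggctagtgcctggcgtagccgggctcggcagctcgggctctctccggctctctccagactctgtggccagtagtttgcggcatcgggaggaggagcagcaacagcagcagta
Pcdh20: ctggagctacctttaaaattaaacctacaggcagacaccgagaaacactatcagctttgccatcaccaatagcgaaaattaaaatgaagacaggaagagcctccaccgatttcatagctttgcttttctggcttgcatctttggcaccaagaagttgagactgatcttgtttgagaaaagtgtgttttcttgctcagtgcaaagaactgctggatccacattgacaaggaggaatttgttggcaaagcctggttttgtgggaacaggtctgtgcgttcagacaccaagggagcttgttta
The Pcdh10 and Pcdh19 windows were GC-rich, at 62.3% and 67.7% with 24 and 18 CpG dinucleotides, and each held 1 GC box. Pcdh20 differed from both, with 43.7% GC, 4 CpG dinucleotides and 0 GC boxes. Over all 32851 RefSeq mouse promoters of this length the median GC content was 52.7% with 7 CpG dinucleotides, and 35.7% held a GC box. The motif CCAAT occurred 2 times in the Pcdh10 window and 1 time in each of the others (37.4% of all promoters held it on either strand), and TATAAA occurred in none of the 3 (13.6%). Letters matching a motif describe the window only.

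Between wild-type control regions Pcdh19 and both tested alpha genes were highest in cortex, Pcdh10 was lowest in cerebellum and Pcdh20 was lowest in striatum. Of 9 gamma genes that passed the filter in both cortex and cerebellum, 4 were lower and 2 higher in cortex. Of all genes tested there, which passed in either region, 21.6% were lower and 21% higher. Pcdh10, a protocadherin that in mouse is needed for the growth of striatal axons, was 6.73-fold higher in cortex and 4.05-fold higher in striatum than in cerebellum. Pcdh19, the X-linked gene mutated in a human epilepsy of girls, was 2.80-fold higher in cortex than in cerebellum and 1.94-fold higher than in striatum. Pcdh20, whose role in brain is less well described, was lowest in striatum, 2.82-fold below cortex.

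Pcdh10 read 9.66, 10.11, 9.68 and 9.30 in striatum, 10.78, 10.45, 10.26 and 10.19 in cortex, and 8.08, 7.57 and 7.36 in cerebellum. No array of one region reached into another. The differences were 2.75 (SE 0.19, adjusted p = 1.24e-15) for cortex minus cerebellum, 2.02 (SE 0.19, adjusted p = 8.1e-12) for striatum minus cerebellum and −0.73 (SE 0.18, adjusted p = 0.00104) for striatum minus cortex. The other Pcdh10 probes put the last difference at −0.50 (adjusted p = 0.0121) and −0.08 (adjusted p = 0.628), so the probes disagree on whether striatum and cortex differ.

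Pcdh19 read 7.95, 7.93, 7.98 and 7.89 in striatum, 8.94, 8.88, 8.51 and 9.25 in cortex, and 7.80, 7.29 and 7.14 in cerebellum. The order was cortex, striatum, cerebellum with no overlap between neighbours, and each step passed the test, by 0.96 on the log2 scale between cortex and striatum (adjusted p = 2.78e-07) and by 0.53 (SE 0.15, adjusted p = 0.00308) between striatum and cerebellum. Pcdh20 read 8.52, 9.07, 9.08 and 8.79 in striatum, 10.27, 10.88, 10.05 and 10.25 in cortex, and 9.13, 10.04 and 10.11 in cerebellum. Striatum lay below every array of the other regions, by 2.82-fold against cortex (adjusted p = 2.33e-06) and by 0.90 on the log2 scale against cerebellum (SE 0.26, adjusted p = 0.00381), while cortex and cerebellum were not called different.

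Among all tested genes 10 of 30 protocadherins were called between striatum and cortex, where 30.3% of all genes were, 15 of 30 between striatum and cerebellum (44.2%) and 17 of 30 between cortex and cerebellum (42.6%). These shares are near those of all genes, so the number called is not particular to protocadherins. As for all genes, a gene entered such a comparison if it passed the filter in either region, and of the genes that passed in both 10 of 26, 14 of 28 and 14 of 26 were called. Without wild-type control cerebellum array 4 the count between striatum and cerebellum was 8, and Pcdh19, Pcdha5, Pcdhgb2, Pcdhgb4, Pcdhgc5, Pcdhb6 and Pcdh1 lost the call. The mean level of blood cell markers was 12.74 on that array, against 9.43 and 8.54 on the other arrays of its group. That of mural and meningeal markers was 9.04, against 8.38 and 8.17. The part of blood and meninges in these calls was not tested. Both tested alpha genes were higher in cortex than in either other region. Pcdha12 read 8.92, 9.12, 8.57 and 8.93 in cortex, 8.49, 8.45, 8.37 and 8.31 in striatum, and 8.04, 8.03 and 7.97 in cerebellum, with no overlap between any 2 regions. Pcdha5 was 0.55 higher in cortex than in striatum (adjusted p = 4.79e-06) and 0.26 higher than in cerebellum (adjusted p = 0.0289), the second with overlapping arrays. Its 4 probes disagreed between striatum and cerebellum, where the brightest gave −0.29 and another gave 0.26 (adjusted p = 0.0438).

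Of the 9 gamma genes that passed the filter in both cortex and cerebellum 4 were lower and 2 higher in cortex, with a median difference of −0.15. Pcdhga8 read 7.70, 8.05 and 7.80 in cerebellum, and it was 0.84 lower in cortex (SE 0.12, adjusted p = 1.91e-07) and 0.53 lower in striatum (SE 0.12, adjusted p = 0.000303), with no overlap in either case. Pcdhgb6, Pcdhgb2 and Pcdhga7 were the others lower in cortex, by 0.82, 0.56 and 0.35. Their cortex means of 6.94, 6.94 and 6.68 lay below the highest level of Zfy2 on female arrays (7.10), so these sizes are uncertain. Pcdhga10 read 7.23, 8.27 and 7.91 in cerebellum, and its cortex arrays (6.83, 6.33, 6.62 and 6.73) lay in the range of the Y-linked genes on female arrays. The highest of them lay only in that of Zfy2. In striatum, where it passed the filter, Pcdhga10 was 0.76 lower than in cerebellum (SE 0.20, adjusted p = 0.0021), with overlap, and 0.52 lower without cerebellum array 2 (adjusted p = 0.0523). Pcdhgc4, a C-type isoform that in mouse supports the survival of cortical interneurons, passed the filter in cerebellum only, at 6.91 to 7.89, against 6.81 to 6.93 in cortex and 6.50 to 6.76 in striatum; since it entered through the region where it is high, no size or test is given for it or for Pcdhga10 in cortex.

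Pcdhgc5 and Pcdhgb4 went the other way. Pcdhgc5, a C-type isoform, was 0.53 higher in cortex (adjusted p = 0.0123) and 0.49 higher in striatum (adjusted p = 0.0184) than in cerebellum, with overlap in both. Without cerebellum array 4 these were 0.34 (adjusted p = 0.163) and 0.31 (adjusted p = 0.207), and without array 1 both also lost the call (adjusted p = 0.0501 and 0.0691), as the second did without striatum array 4 (adjusted p = 0.0592). Pcdhgb4 was higher by 0.47 and 0.48 on its brightest probe, but its second probe gave −0.18 (adjusted p = 0.285) and −0.23 (adjusted p = 0.159). Pcdhga7 was highest in striatum: it read 7.65, 7.55, 7.08 and 7.35 there, above every array of cortex (6.81, 6.71, 6.83 and 6.36) and of cerebellum (7.01, 7.01 and 7.06). The differences were 0.73 (SE 0.10, adjusted p = 1.75e-07) and 0.38 (SE 0.11, adjusted p = 0.00398). The lower arrays lay in the range of the Y-linked genes on female arrays, so the sizes are uncertain. Most of them lay only in that of Zfy2 (up to 7.10), above the other Y-linked genes (up to 6.75).

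Among beta genes, Pcdhb16, Pcdhb14 and Pcdhb6 were higher in striatum than in cortex by 0.61, 0.33 and 0.30 (adjusted p = 0.00626, 0.03 and 0.0379), the first and last with overlapping arrays. The cortex means of Pcdhb16 and Pcdhb6 (6.88 and 6.80) lay below the highest level of Zfy2 on female arrays (7.10), so their sizes against cortex are uncertain. Pcdhb14 was called in 16 of 21 alternatives and Pcdhb6 in 12 of 20; leaving out 1 array ended the call for any of 3 arrays (Pcdhb14, adjusted p up to 0.157, without cortex array 2) and of 4 arrays (Pcdhb6, adjusted p up to 0.14, without cortex array 3). Cortex against cerebellum gave Pcdhb3 higher by 0.62 and Pcdhb14, Pcdhb16 and Pcdhb22 lower by 0.48, 0.46 and 0.35. Pcdhb3 lost its call without cerebellum array 2 (0.44, adjusted p = 0.0947) or cortex array 1 (0.45, adjusted p = 0.0612). Pcdh8, a non-clustered gene induced by neuronal activity, passed the filter in cortex only, at 6.86 to 7.10, against 6.31 to 6.53 in cerebellum, so no size or test is given for it. Pcdh1 was 0.53 higher in striatum than in cerebellum (adjusted p = 0.041). Wild-type control arrays of cerebellum shared 0 BeadChips with those of striatum or cortex, so BeadChip and region cannot be told apart within these arrays; with BeadChip as a term over all 47 arrays Pcdh20 was −0.75 (adjusted p = 0.0455) between striatum and cerebellum.

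**Figure D1:**
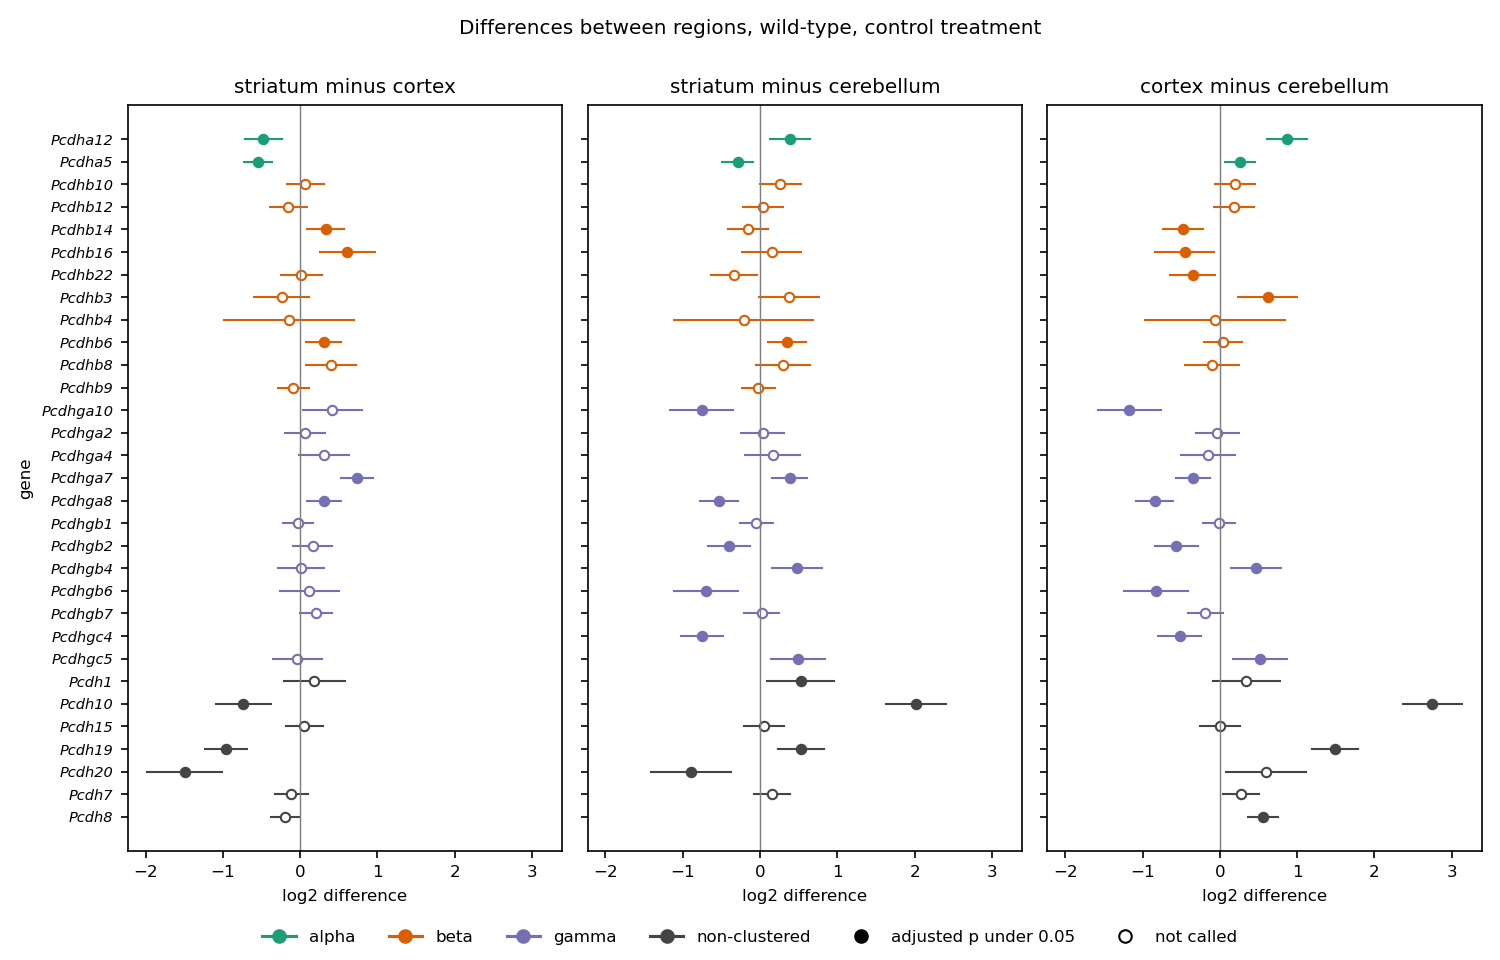
Differences between regions on wild-type control arrays for the tested protocadherins, in log2 units on the x axis with 1 gene per row, points as the fitted difference and bars as the 95% confidence interval; filled points had an adjusted p under 0.05. Pcdh10 and Pcdh19 lie farthest to the right for cortex minus cerebellum, at 2.75 and 1.48. Pcdhga10, Pcdhgb7 and Pcdhgc4 passed the filter in cerebellum but not in cortex, and Pcdh8 in cortex but not in cerebellum. No size or test is read from their points there, or from that of Pcdhgc4 for striatum minus cerebellum.

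The transgene's effect in striatum was tested first between control mice. Pcdhb12 and Pcdhb3 of the beta cluster and the non-clustered Pcdh20 and Pcdh19 were higher in transgenic than in wild-type striatum, by 1.51-, 1.47-, 2.03- and 1.55-fold. These were 4 of 29 tested protocadherins, and 0 were lower; among all genes 3.78% were called, 1.44% higher and 2.34% lower. None of the tested alpha or gamma genes was called.

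Pcdhb12 read 8.24, 8.14, 8.15 and 8.39 on the wild-type arrays and 8.71, 8.79, 8.95 and 8.86 on the transgenic ones. The groups did not overlap, and the difference was 0.60 (SE 0.09, adjusted p = 0.00115). Pcdh20 read 8.52, 9.07, 9.08 and 8.79 against 10.01, 9.94, 9.94 and 9.66, again without overlap, a difference of 1.02 (SE 0.18, 95% confidence interval 0.64 to 1.41, adjusted p = 0.00396). The transgenic arrays overlapped those of wild-type control cerebellum and lay below all those of wild-type control cortex.

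Pcdh19 read 7.95, 7.93, 7.98 and 7.89 in wild-type and 8.81, 8.64, 8.39 and 8.45 in transgenic striatum. The wild-type arrays lay close together and below every transgenic array, with a difference of 0.63 (SE 0.13, adjusted p = 0.0116). Pcdhb3 read 8.86, 9.06, 8.88 and 8.91 against 9.66, 9.30, 9.17 and 9.83, with no overlap and a difference of 0.56 (SE 0.15, adjusted p = 0.0425). In control striatum the genotypes shared 0 BeadChips; with BeadChip as a term over all arrays Pcdhb12 and Pcdh19 were still called (0.52, adjusted p = 0.0264, and 0.64, adjusted p = 0.01), while Pcdh20 (0.88, adjusted p = 0.0643) and Pcdhb3 (0.36, adjusted p = 0.312) were not. Over all alternatives Pcdhb3 was called in 10 of 21, at 0.36 to 0.67, and it lost the call when any of 6 single arrays was left out, with the highest adjusted p without transgenic control array 1 (0.50, adjusted p = 0.128). Pcdh19 lost its call without that same array (0.56, adjusted p = 0.0512).

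Several genes missed the threshold. Pcdh10 was 0.67 higher in transgenic control striatum (adjusted p = 0.0538) with overlapping arrays, Pcdhga7 was 0.31 lower (adjusted p = 0.102) and Pcdhga2 0.33 higher (adjusted p = 0.104). By class, 8 of 10 beta genes and 4 of 6 non-clustered genes had positive differences, with medians of 0.19 and 0.42, against 2 of 11 gamma genes with a median of −0.06. The median over all genes was 0.01.

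Under 4b the same question was asked of treated mice, in other samples. Pcdhb12, Pcdh20, Pcdhb3 and Pcdh19 were higher in transgenic striatum, by 0.57 (adjusted p = 0.00136), 0.95 (adjusted p = 0.00597), 0.64 (adjusted p = 0.0209) and 0.52 (adjusted p = 0.0352), each without overlap. Pcdhga7 was lower by 0.51 (adjusted p = 0.008). Of all genes 4.51% were called, 1.58% higher and 2.93% lower. Pcdhga7 read 7.42, 7.37, 7.36 and 7.42 in wild-type and 6.97, 6.80, 6.82 and 6.92 in transgenic 4b striatum, 2 narrow groups well apart. Pcdh10 was 0.64 higher without overlap and missed the threshold (adjusted p = 0.0591), and Pcdh1 was 0.30 higher (adjusted p = 0.134). The Pcdh19 call under 4b held in 11 of 21 alternatives, at 0.34 to 0.66, and was lost without any of 7 single arrays, with an adjusted p of up to 0.108 (without wild-type 4b array 4). The Pcdhb3 call held in 16 of 21.

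Averaged over control and 4b, with 8 arrays of each genotype, 6 of 29 protocadherins rose and 1 fell in transgenic striatum, against 13.7% of all genes called, 6.46% higher and 7.22% lower. The 6 were Pcdhb12 (0.58, adjusted p = 1.38e-05), Pcdh20 (0.99, adjusted p = 8.75e-05), Pcdh19 (0.58, adjusted p = 0.000627), Pcdhb3 (0.60, adjusted p = 0.00109), Pcdh10 (0.65, adjusted p = 0.00317) and Pcdh1 (0.26, adjusted p = 0.0344), and Pcdhga7 fell by 0.41 (adjusted p = 0.00114). The split by class was 4 of 6 non-clustered and 2 of 10 beta genes higher, 1 of 11 gamma genes lower and 0 of 2 alpha genes. The median difference was 0.17 over beta genes, with 8 of 10 positive, and −0.09 over gamma genes, with 9 of 11 negative. Over all genes it was 0.02. Pcdh10 ran from 9.30 to 10.11 (median 9.70) on wild-type arrays and from 10.04 to 10.94 (median 10.35) on transgenic ones, which overlapped slightly. Its other 2 probes gave 0.24 (adjusted p = 0.0226) and 0.40 (adjusted p = 0.0297).

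Pcdhga7 ran from 7.08 to 7.65 (median 7.39) in wild-type and from 6.80 to 7.19 (median 6.999) in transgenic striatum, and the transgenic range held all 3 wild-type control cerebellum arrays. Apart from its top, that range also lay within the levels of Zfy2 on female arrays (up to 7.10), though above the other Y-linked genes (up to 6.75). The size of the fall is therefore uncertain. Pcdh1 was the weakest of the 7: 8.58 to 8.95 (median 8.79) against 8.86 to 9.30 (median 8.997), with overlap, and it was called in 18 of 29 alternative settings. Its second probe gave 0.17 (adjusted p = 0.227), and the second Pcdh19 probe gave 0.19 (adjusted p = 0.228).

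Pcdh19 is X-linked, and its difference was present in both sexes by mean: it averaged 7.96 (SD 0.10, n = 4) in wild-type and 8.39 (SD 0.25, n = 3) in transgenic males, and 8.01 (SD 0.09, n = 4) and 8.66 (SD 0.20, n = 5) in females. Only 2 BeadChips held striatum of both genotypes, 1 with 1 transgenic control and 1 wild-type 4b array, the other with 1 transgenic 4b array and 4 wild-type arrays of both treatments. The transgenic minus wild-type values there, with no test and with treatments mixed, were 0.87 and 1.33 for Pcdh20, 0.57 and 0.68 for Pcdh19, 0.42 and 0.50 for Pcdhb12, and 0.65 and 0.75 for Pcdhb3.

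**Figure D2:**
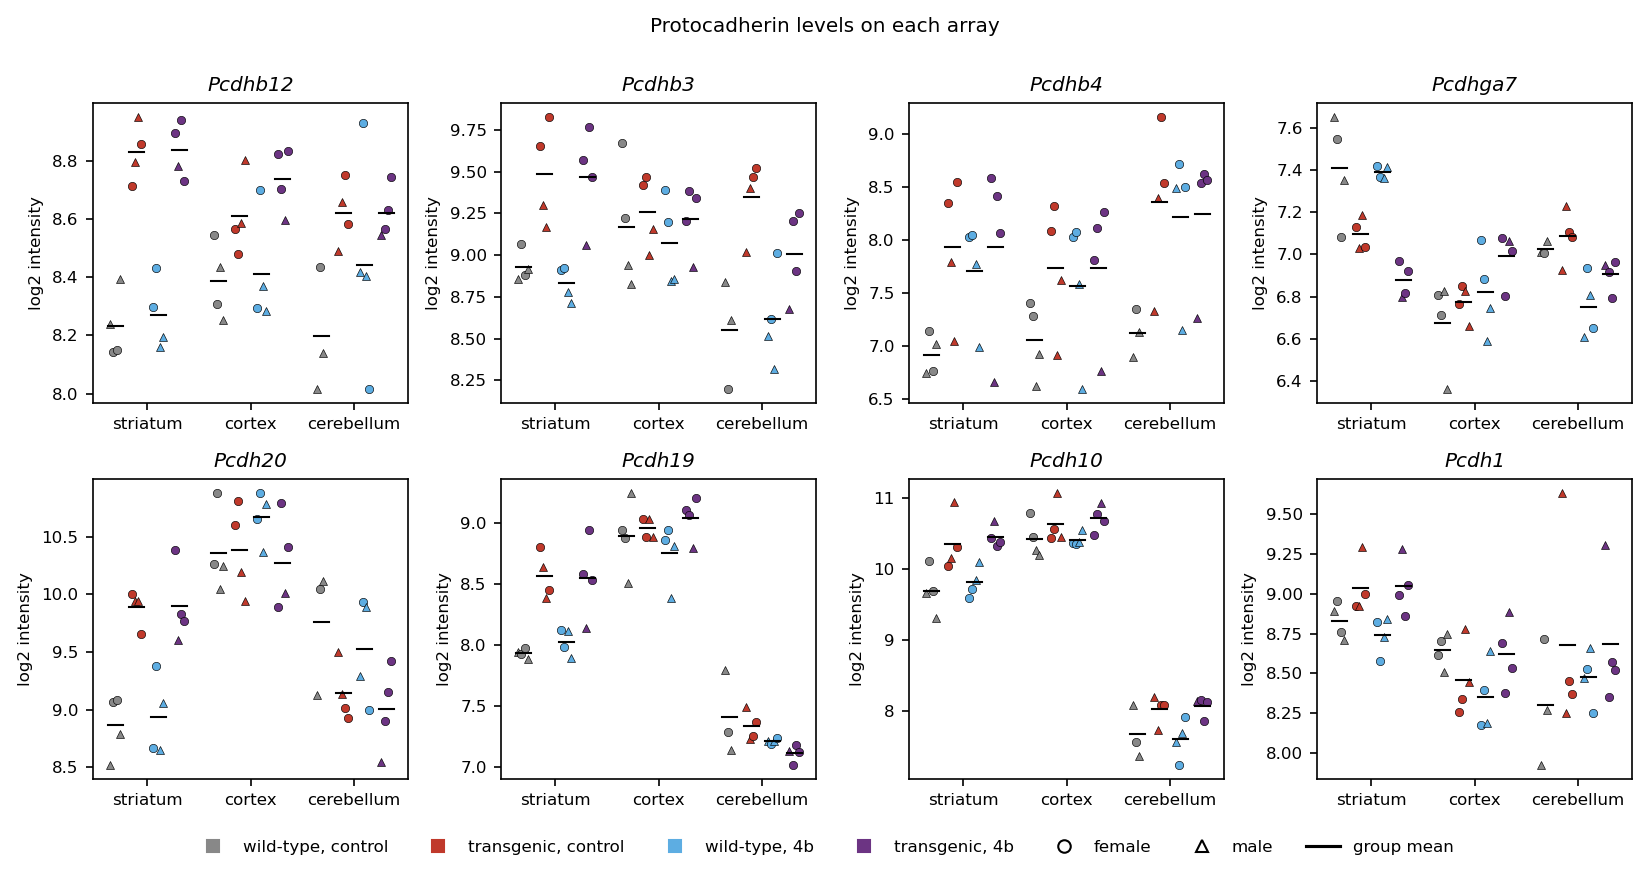
Log2 level on every array (y axis) of 8 protocadherins in the 12 groups (x axis), with circles for female and triangles for male mice, colours for genotype and treatment, and a bar at the group mean. In striatum Pcdhb12, Pcdh20 and Pcdh19 lie higher on transgenic than on wild-type arrays without overlap, and Pcdhb4 falls into high and low arrays within groups.

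In cortex the same genes moved little. Between control mice 0 of 27 protocadherins were called with limma, while 5.09% of all genes were (1.58% higher and 3.52% lower). An unadjusted p under 0.05 was found for 2 members and for 2146 of all 12052 genes tested. The members of smallest p were Pcdhb14 (−0.25, adjusted p = 0.268), Pcdhb12 (0.22, adjusted p = 0.269) and Pcdhgc5 (−0.20, adjusted p = 0.344). Under 4b 0 of 27 were called (5.52% of all genes, 2.11% higher and 3.41% lower), with Pcdhb12 at 0.33 (adjusted p = 0.0719), Pcdhb22 at 0.19 (adjusted p = 0.201) and Pcdh10 at 0.31 (adjusted p = 0.24).

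Averaged over treatments Pcdhb12 alone was called in cortex, where 13.6% of all genes were (5.87% higher and 7.7% lower). It ran from 8.25 to 8.70 (median 8.34) on wild-type and from 8.48 to 8.83 (median 8.65) on transgenic arrays, with overlap, and was 0.28 higher (SE 0.07, adjusted p = 0.019). With BeadChip as a term the difference was 0.25 (adjusted p = 0.123), and it was −0.05 on a BeadChip with 2 transgenic and 1 wild-type array and 0.33 on one with 3 and 1. Pcdh20 and Pcdh19, called in striatum, were at −0.19 and 0.18 in cortex. In the same comparison 5 of 8 cortical excitatory neuron markers were lower (their mean level was 11.10 to 11.30 on transgenic and 11.54 to 11.72 on wild-type control arrays), as were 4 of 7 astrocyte markers (10.94 to 11.12 against 11.32 to 11.42). Their part in the Pcdhb12 difference was not tested.

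In cerebellum 0 of 29 protocadherins were called between control mice, against 0.689% of all genes (0.332% higher and 0.357% lower). An unadjusted p under 0.05 was found for 8 of the 29 and for 1495 of all 12049 genes tested. Pcdhb3 was 0.80 higher (adjusted p = 0.0771), Pcdhb10 0.44 higher (adjusted p = 0.0957) and Pcdhga8 was at −0.40 (adjusted p = 0.221). With BeadChip as a term over all arrays Pcdhb3 was called, with an adjusted p of 0.00611, and so was Pcdhb16; without transgenic control array 1 Pcdhb3 alone was called, and without array 2 Pcdhb10 alone. All 9 tested beta genes had positive differences, with a median of 0.35, against 0.03 over all genes. Under 4b 0 of 29 were called (1.44% of all genes, 0.423% higher and 1.02% lower), and Pcdhb3 was at 0.39 (adjusted p = 0.385), Pcdh10 at 0.47 (adjusted p = 0.233) and Pcdha5 at −0.25 (adjusted p = 0.385).

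Averaged over treatments 2 beta genes rose in transgenic cerebellum, with 5.25% of all genes called, 2.32% higher and 2.93% lower. Pcdhb3 ran from 8.20 to 9.01 (median 8.61) on wild-type and from 8.68 to 9.52 (median 9.23) on transgenic arrays, a difference of 0.60 (SE 0.13, adjusted p = 0.0153). Pcdhb10 ran from 7.85 to 8.22 (median 8.06) and from 8.09 to 8.58 (median 8.33), a difference of 0.31 (SE 0.08, adjusted p = 0.0293). Both overlapped between genotypes. On the 3 BeadChips that held both genotypes, with 1 or 2 transgenic and 1 to 3 wild-type arrays and treatments mixed, the values were 0.43 to 1.27 for Pcdhb3 and 0.01 to 0.65 for Pcdhb10, with no test. The Pcdhb3 call held in 28 of 28 alternatives and the Pcdhb10 call in 17 of 28, with values of 0.25 to 0.36. Beta genes had 8 of 9 positive differences, with a median of 0.23, against 0.02 over all genes. In the same comparison 3 of 6 tested oligodendrocyte markers were lower, Mobp (−0.85), Cldn11 (−0.51) and Mag (−0.45). The mean level of the 7 markers on the array was 11.25 to 11.70 on transgenic and 11.82 to 12.24 on wild-type control arrays. Their part in the beta gene differences was not tested.

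Pcdh20 had the opposite sign in cerebellum from that in striatum, at −0.57 averaged over treatments (adjusted p = 0.0996), with 8.998 to 10.11 (median 9.89) on wild-type and 8.55 to 9.50 (median 9.08) on transgenic arrays. The difference of the genotype effects between regions was tested itself on control arrays. Pcdh20 was called between striatum and cerebellum, by 1.64 (SE 0.35, 95% confidence interval 0.93 to 2.34, adjusted p = 0.00763), as 1 of 30 protocadherins with 1.11% of all genes called. With BeadChip as a term the value was 1.51 and was not called (adjusted p = 0.107).

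Between striatum and cortex 0 of 30 were called (0.338% of all genes): Pcdh20 was at 1.00 and Pcdh19 at 0.57 (both adjusted p = 0.416), and Pcdhga7 at −0.41 (adjusted p = 0.461). Between cortex and cerebellum 0 of 30 were called (0.453%), with Pcdhga8 at 0.47 (adjusted p = 0.267), Pcdhb3 at −0.71 (adjusted p = 0.309) and Pcdhgc5 at −0.52 (adjusted p = 0.468). So a larger effect in striatum than in cortex was not shown for Pcdh20, Pcdh19, Pcdhb12 or Pcdhb3.

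**Figure D3:**
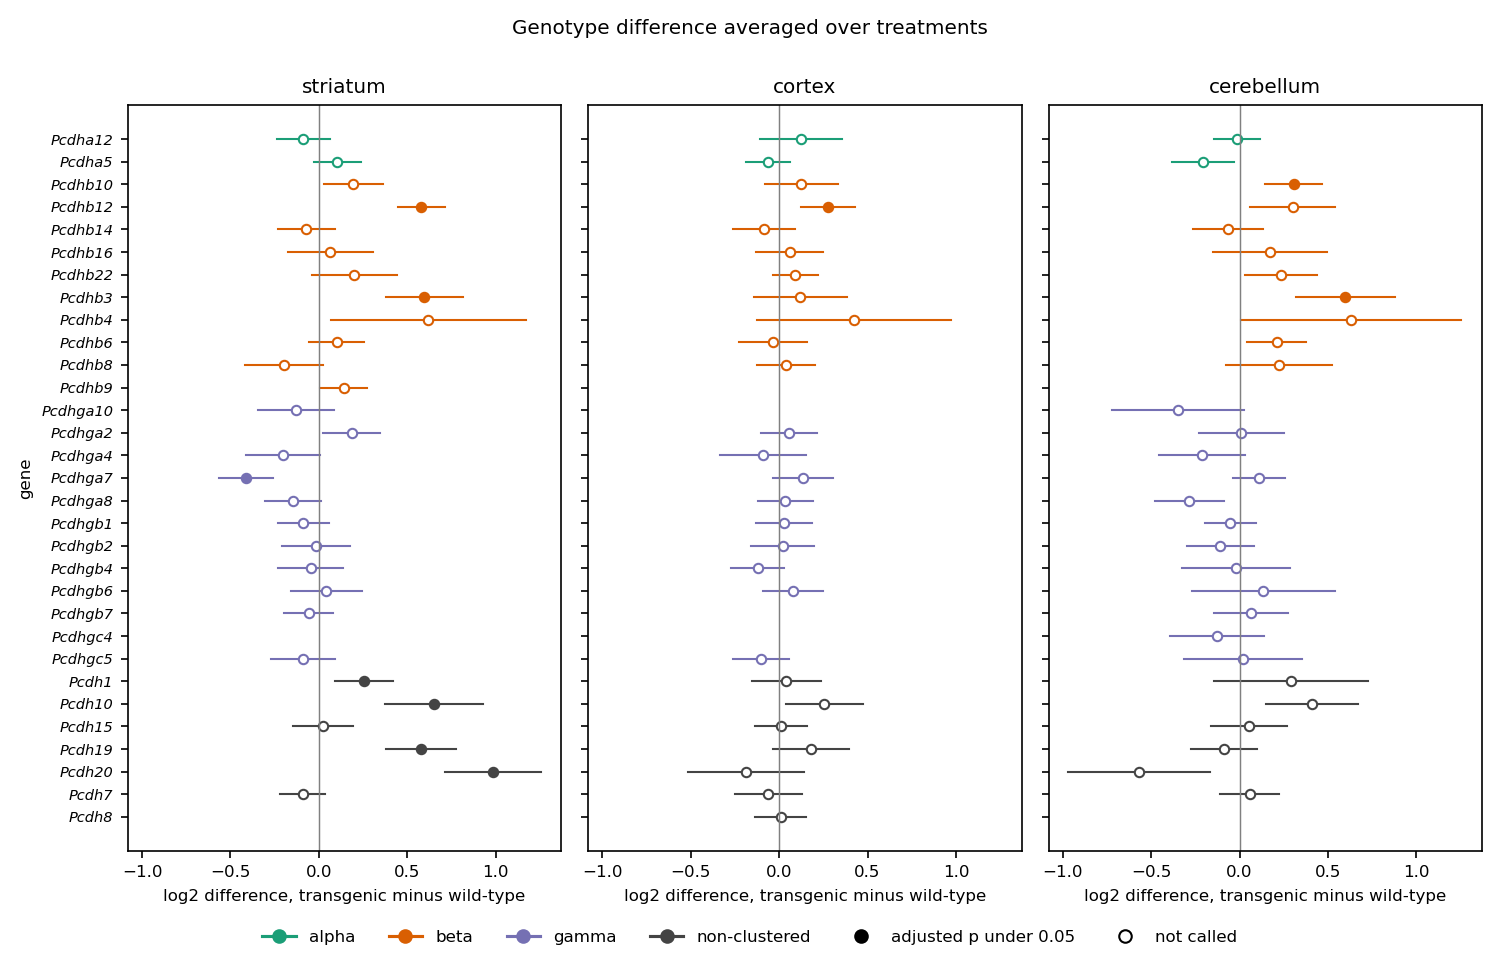
Transgenic minus wild-type difference averaged over control and 4b for the tested protocadherins, in log2 units on the x axis, 1 gene per row and 1 panel per region, points as the fitted difference and bars as the 95% confidence interval; filled points had an adjusted p under 0.05. In striatum 7 genes are filled, in cortex 1 and in cerebellum 2.

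Pcdhb4 varied within groups more than any other protocadherin, with a pooled SD of 0.62 over the 12 groups, and its pattern was picked out after the values were seen. In striatum it read 6.74, 7.14, 6.77 and 7.02 on wild-type control arrays, 8.35, 7.80, 7.05 and 8.54 on transgenic control arrays, 8.03, 8.05, 7.77 and 6.99 on wild-type 4b arrays and 8.59, 6.66, 8.42 and 8.06 on transgenic 4b arrays. In each of the 9 groups other than the wild-type controls 3 of 4 arrays lay above 7.41, the level of the highest of the 11 wild-type control arrays, which set this line. The arrays above it were 21 of 21 female and 6 of 15 male arrays among those 9 groups. Pcdhb4 was not called in any of the comparisons above: it was 1.02 higher in transgenic control striatum (SE 0.37, adjusted p = 0.147).

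The lowest Pcdhb4 array in each of the 9 groups came from a male, at 6.59 to 7.34, while the next lowest array of the group was at 7.58 to 8.54. The same arrays were the lowest for Pcdhb3 in 8 of 9 groups and for Pcdhgb6 in 7 of 9. They were the highest for Pcdh1 in 9 of 9 and for Pcdh10 in 7 of 9. Among 12794 genes 0.274% were lowest on these arrays in at least 8 groups and 0.758% in at least 7. The share highest in all 9 was 0.0703%, and 1.04% were highest in at least 7. The pattern was not confined to protocadherins. The mean level of 6 oligodendrocyte precursor markers was also lowest on these arrays in 9 of 9 groups. In transgenic 4b striatum that mean was 9.53 on array 2 against 10.34 to 10.61 on the others. Female wild-type control arrays, all low in Pcdhb4, also included low ones. In cortex array 1 read 9.86 against 10.14 to 10.37 on the others, and in striatum array 2 read 9.86 against 10.31 to 10.38. Wild-type control cerebellum read 10.29, 9.67 and 9.61. So a low mean of these markers was not particular to the male arrays. The other marker lists are not given for these arrays. Whether the arrays lowest in Pcdhb4 share an animal is not given in the labels, and their part in the Pcdhb3, Pcdh1 and Pcdh10 differences was not tested. With sex as a term, averaged over treatments, Pcdhb3 was 0.56 higher in transgenic striatum (adjusted p = 0.000174) and 0.56 higher in cerebellum (adjusted p = 0.0223). In striatum Pcdh10 was then 0.67 higher (adjusted p = 0.00315) and Pcdh1 0.27 higher (adjusted p = 0.026). A sex term does not single out the arrays low in Pcdhb4, since 6 of 15 male arrays of the 9 groups lay above the line.

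The effect of 4b was tested within each genotype, averaged over genotypes and as an interaction, in each region. No protocadherin was called in any of these comparisons with limma, where 0% of all genes were called except in striatum averaged over genotypes (0.00831%). Averaged over genotypes 1 member in striatum, 1 in cortex and 5 in cerebellum had an unadjusted p under 0.05. Of all genes 492 of 12030, 473 of 12052 and 1352 of 12049 did. In each of the other comparisons 0 to 5 members did, and 243 to 1098 of all genes tested. For the 7 genes called by genotype in striatum the 4b minus control difference there was, on the log2 scale: Pcdhb12 0.02 (95% confidence interval −0.11 to 0.16), Pcdh19 0.04 (−0.16 to 0.24), Pcdh20 0.04 (−0.23 to 0.31), Pcdhb3 −0.06 (−0.28 to 0.16), Pcdh10 0.11 (−0.17 to 0.39), Pcdh1 −0.04 (−0.20 to 0.12) and Pcdhga7 −0.12 (−0.27 to 0.03).

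In cerebellum 21 of 29 members had negative 4b differences averaged over genotypes, among them 10 of 12 gamma genes with a median of −0.20. The median over all genes there was 0.02. Pcdhga8 came closest to the threshold. It read 7.70, 8.05 and 7.80 in wild-type control, 7.11, 7.17, 7.44 and 7.26 in wild-type 4b, 7.19, 7.61, 7.47 and 7.54 in transgenic control, and 7.02, 6.83, 7.26 and 7.18 in transgenic 4b cerebellum. The wild-type groups did not overlap and the transgenic groups did, and the averaged difference was −0.49 (95% confidence interval −0.69 to −0.30, adjusted p = 0.262). Pcdhga7 was at −0.23 (adjusted p = 0.385) and Pcdhga10 at −0.47 (adjusted p = 0.392).

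The smallest p in striatum belonged to Pcdhb16, at −0.30 averaged over genotypes (adjusted p = 0.994), and in cortex to Pcdhga7, at 0.18 (adjusted p = 0.999). In transgenic mice alone the leading values were Pcdhga7 at −0.22 in striatum and 0.21 in cortex (adjusted p = 1 for both) and Pcdhga8 at −0.38 in cerebellum (adjusted p = 0.876). In wild-type mice Pcdh8 was at 0.27 in cortex (adjusted p = 0.483), Pcdhga8 at −0.61 in cerebellum (adjusted p = 0.367) and Pcdhga2 at 0.23 in striatum. The interactions of smallest p were Pcdha5 at −0.27 in striatum (adjusted p = 1), Pcdh1 at 0.46 in cortex (adjusted p = 0.743) and Pcdhb4 at −1.19 in cerebellum (adjusted p = 0.997).

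**Figure D4:**
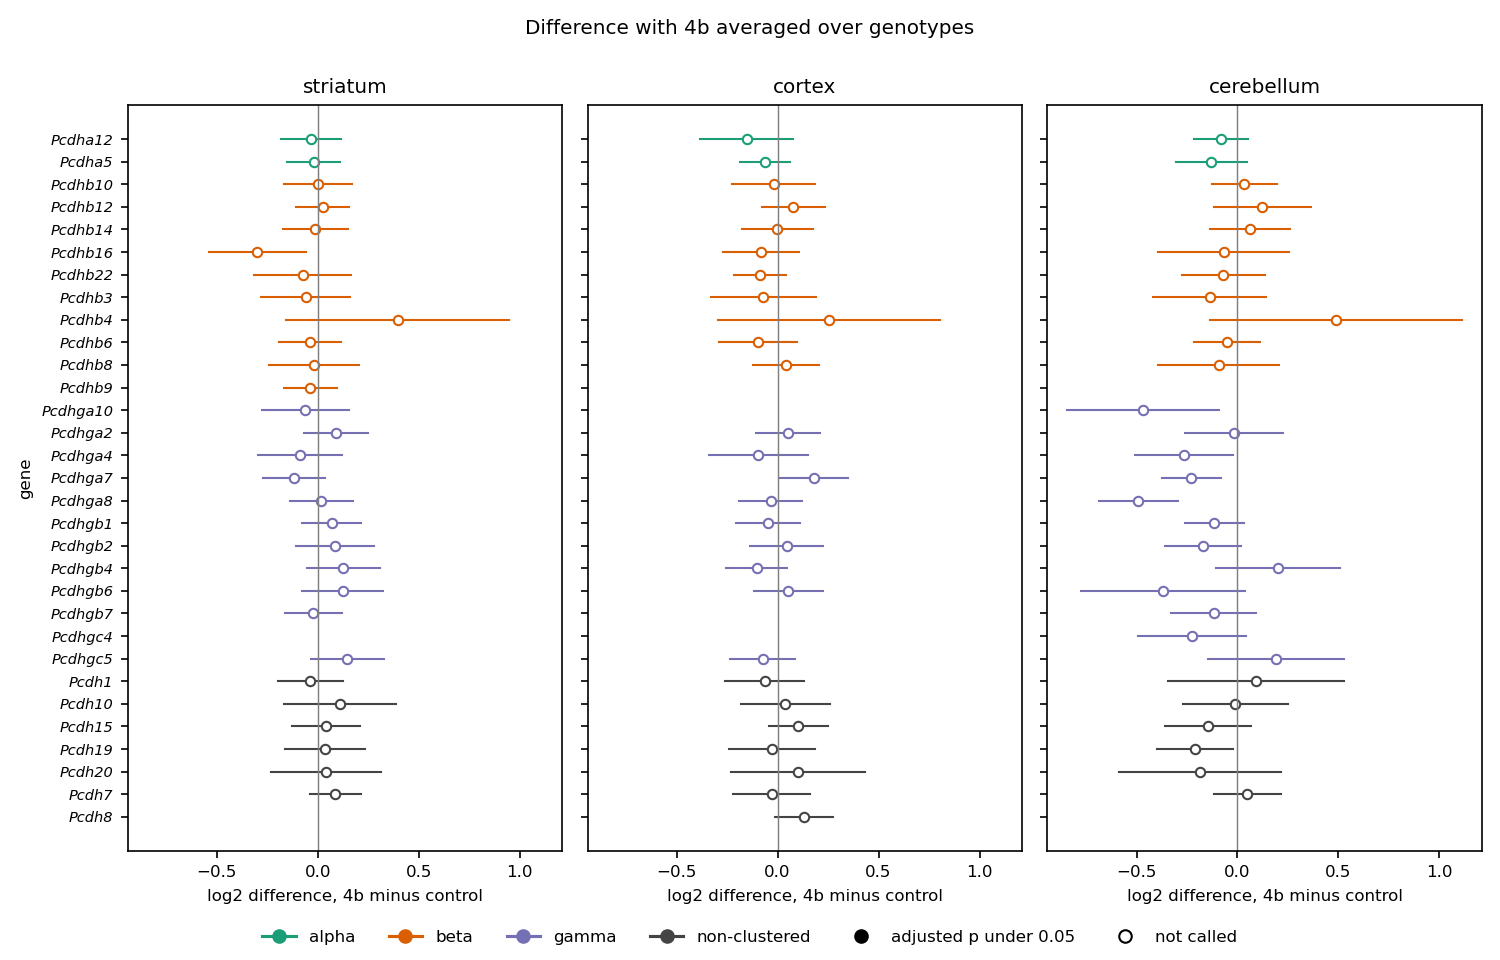
Difference 4b minus control averaged over genotypes for the tested protocadherins, in log2 units on the x axis, 1 gene per row and 1 panel per region, points as the fitted difference and bars as the 95% confidence interval. No gene had an adjusted p under 0.05; Pcdhga8 in cerebellum lies at −0.49 with an interval of −0.69 to −0.30.

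Genes that act with protocadherins were followed in the same fits. Of 19 tested regulators of the clusters (CTCF, cohesin and associated chromatin proteins; 30 listed, 23 on the array) Pds5b, a cohesin-associated protein, was higher in transgenic control striatum by 0.48 (adjusted p = 0.0313) and in control cortex by 0.39 (adjusted p = 0.0203). Averaged over treatments Pds5b (0.38) and Wiz (0.30), a zinc-finger protein known to take part in protocadherin regulation in mouse, were higher in striatum, and 4 of the list were higher in cortex, led by Wiz (0.29), Pds5b (0.32) and Stag1 (0.31), where 6.46% and 5.87% of all genes were called higher. None was called in cerebellum, where 0.689% of all genes were between control mice, 1.44% under 4b and 5.25% averaged. Between control mice 1.44% of all genes were called higher in striatum and 1.58% in cortex. The median difference of the 19 between control mice was 0.13 in striatum, 0.12 in cortex and 0.15 in cerebellum, against 0.01, 0.01 and 0.03 over all genes.

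The intracellular partners numbered 21 tested genes (30 listed, 24 on the array). They include the WAVE actin complex that Pcdh10 and alpha protocadherins bind. In control striatum 0 of the 21 were called, against 3.78% of all genes, and their median difference was −0.08. Averaged over treatments 5 were lower in transgenic striatum, led by the phosphatase subunit Ppp1ca (−0.48) and the WAVE subunits Cyfip2 (−0.43) and Abi1 (−0.29), and Map2k3 (0.31) and Marcks (0.30) were higher; of all genes 7.22% were called lower and 6.46% higher. Marcks, an actin-binding target of protein kinase C, was also higher in transgenic control cerebellum by 0.83 (adjusted p = 0.0194) and control cortex by 0.39 (adjusted p = 0.0483). Of all genes 0.332% and 1.58% were called higher there. In cortex averaged over treatments Marcks was higher (0.47), and Prkcb (−0.26) and Brk1 (−0.18) were lower. There 5.87% of all genes were called higher and 7.7% lower. Of 17 classical and type II cadherins and catenins tested in striatum 0 were called between control mice, where 3.78% of all genes were. Averaged over treatments Cdh4 was lower there (−0.42, adjusted p = 0.0141). In cortex Cdh15 was higher by 0.51 averaged over treatments (adjusted p = 0.0227), with 5.87% of all genes called higher. Of 7 other cadherin relatives Cdhr1 was lower in striatum averaged over treatments (−0.53, adjusted p = 0.0371), and Celsr2 was lower in control cortex (−0.37, adjusted p = 0.0311). In cortex averaged over treatments Cdh23 was lower (−0.24, adjusted p = 0.0377). Of all genes 3.52% were called lower in control cortex. No gene of these lists was called for 4b averaged over genotypes.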

How the data were processed

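Illumina bead arrays of 47 mouse brain samples were read from a table of raw probe intensities, one value per probe and sample as deposited by the authors, with BeadStudio named per the submitters' processing notes. The authors' log2 table, deposited beside it, lay within 0.0115 of quantile-normalized log2 intensities and served as an alternative. Array number, not depth, limits the precision. 1 sample column could not be matched to a label and was not used. Of 24613 probes, 20984 had 1 gene symbol, 1 had several and 3628 had none.

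Intensities were background-corrected with normexp (offset 50), quantile-normalized and taken to log2. The brightest probe stood for a gene. Linear models were fitted with limma 3.58.1 in R 4.3.3 across all genes above the 40th percentile of a region (of either region when regions were compared), with the 4 groups of a region, or all 12 groups for comparisons between regions. p-values are two-sided and Benjamini-Hochberg adjusted over all genes tested, called at 0.05. Differences are on the log2 scale. A level is compared between samples only, never between genes. The fit was tested on simulated data.

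Values are given for members called in a comparison (the 6 of smallest p in each direction), the 3 of smallest p where none was called, and the 3 widest-ranging per class; Pcdhb4 was also followed after its values were seen. The members and lists were chosen with earlier results of these data known. Alternatives were the background correction, scaling, filter, probe rule, trend, array weights, compared groups alone, BeadChip, sex, replicate number, and dropping 1 array at a time. Figures were drawn with Python 3.11.15 and matplotlib 3.10.9. Whether alpha and gamma probes lie in shared constant exons was not tested.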

Additional observations from a re-analysis of the deposited data

Results flagged for a closer look

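Single arrays stood far from the others of their group for 8 of 23 genes looked at, in 10 of 253 sets of 1 gene in 1 group, where chance alone marks about 1 in 20 sets, here 12.7. In cerebellum these were Pcdh1 on transgenic control array 1 (9.64), Pcdh10 on transgenic 4b array 3 (7.86), and Pcdhb4 on transgenic 4b array 1 (7.26) and on wild-type 4b array 3 (7.16). In cortex they were Pcdh10 on wild-type 4b array 4 (10.55), Pcdha5 on transgenic control array 4 (13.0) and Pcdhb16 on wild-type control array 4 (7.30). In striatum they were Pcdha1 on transgenic control array 3 (6.68), and Pcdha12 (8.69) and Pcdhga10 (6.68) on wild-type 4b array 3. Pcdh20 was marked for its genotype effect, which differed between striatum and cerebellum of control mice by 1.64 on the log2 scale in the test of that difference.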

How the results depend on the processing

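The number of protocadherins called depended on scaling, array weights and BeadChip. With median scaling 2 in place of 4 were called by genotype in control striatum, 1 in place of 5 under 4b in striatum, and 1 in place of 2 in cerebellum averaged over treatments. With array weights these were 8 in control striatum, 2 in place of 0 under 4b in cerebellum, 4 averaged in cerebellum, and 1 for 4b averaged in cerebellum. With BeadChip as a fixed term over all arrays 2 in place of 0 were called in control cerebellum, 0 in place of 1 in cortex averaged, 1 for 4b averaged and 1 for 4b in wild-type cerebellum, and 0 in place of 1 for the genotype effect between striatum and cerebellum. Under that term the 4b difference of Pcdhb16 in transgenic striatum went from −0.32 to 0.00205, that is to about 0. Without the filter 2 in place of 1 were called in cortex averaged and 1 in place of 0 under 4b. The stricter filter left 10 of 17 between cortex and cerebellum, 9 of 15 between striatum and cerebellum and 6 of 10 between striatum and cortex, as fewer genes were tested, and fitting the compared groups alone left 10 of 17. Leaving out 1 array at a time gave 2 to 5 in control striatum (2 without transgenic control array 1), 3 to 5 under 4b, 6 to 8 averaged, 0 to 0, 0 to 1 and 1 to 2 in cortex, 0 to 1, 0 to 0 and 1 to 4 in cerebellum, 14 to 17 between cortex and cerebellum, 8 to 16 between striatum and cerebellum (8 without wild-type control cerebellum array 4), 7 to 11 between striatum and cortex, 1 to 2 for the genotype effect between striatum and cerebellum, and 0 to 3 for 4b averaged in cerebellum (3 without transgenic control array 1: Pcdhga7, Pcdhga8 and Pcdhgb6); the other counts for 4b were 0 to 0. In striatum averaged over treatments Pcdhb12, Pcdh20, Pcdh19, Pcdhb3 and Pcdh10 were called in 29 of 29 alternatives and Pcdhga7 in 28 of 28. Pcdhb3 averaged in cerebellum was called in 28 of 28 and Pcdhb10 in 17 of 28. Same-numbered arrays of different groups were compared only within a region, where they did not pair (correlations of −0.315 to 0.293). Pairing across regions was not tested. With the replicate number as a block 3 were called in control striatum, 5 under 4b and 6 averaged. In cortex 1 was called averaged and in cerebellum 1 averaged. Between regions 18, 15 and 10 were called (cortex and cerebellum, striatum and cerebellum, striatum and cortex). The causes of these changes were not tested. Level near background limits the 23 untested genes, and also tested ones such as Pcdhga7, Pcdhga10, Pcdhgb2, Pcdhgb6, Pcdhgc4, Pcdhb6, Pcdhb16 and Pcdh8.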
